A study of Mus musculus with 12 samples.

Results

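Lentiviral GFP is the control virus of the study, and it was given to 2 sets of cells that the labels describe in different units. In the first set, 4 libraries were made from cells that received lenti-GFP at a multiplicity of infection (MOI, the number of infectious particles offered per cell) of 15, 30, 60 and 120, with 1 library at each MOI. The other set is a single library from cells transduced with lenti-GFP at the 1x dose, called 1x GFP below. These 5 of the 12 libraries of the study were chosen by their labels alone, and the comparison asks which genes and gene programs separate the 2 sets. The labels do not relate the 1x dose to an MOI.

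All libraries came from mouse embryonic fibroblasts of genotype MyoD-/-; Myf5-/-, which lack both transcription factors that commit cells to skeletal muscle. Cells were infected in the presence of polybrene at 8 µg/ml. After 24 h they received differentiation medium based on DMEM, for which the labels list insulin, transferrin and horse serum, and they were harvested 20 h later. RNA was selected with oligo-dT. In the same count table stood 5 further libraries of these cells, with lenti-MyoD at 1x and 2x, lenti-Myf5 at 1x and 2x, and no virus (untransduced). They entered the fit as groups of their own, and their levels are given beside those of the GFP libraries where they bear on a result. Libraries of the same group differed in MOI or dose, and the fit treated them as replicates. The spread against which p-values were computed therefore includes any effect of MOI or dose within a group. The labels do not say whether libraries of a group came from separate cultures, so the rest of that spread may be technical.

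Sequencing was shallower in the MOI series. Its totals were 17861174 to 22373706 counts, against 81513727 counts in 1x GFP, and the other 5 libraries had 68302462 to 80580823 counts. Depth and group therefore cannot be told apart, and no sequencing run or date is given. All 14 fibroblast markers of the list, among them Col1a1, Pdgfra, Thy1 and Vim, passed the filter, with a summed level of 27469 to 28773 CPM (counts scaled to a common library size) in the MOI series and 27071 CPM in 1x GFP. No epithelial marker passed it. Myod1, whose gene is null in these cells, stood at 5.80, 5.48, 5.85 and 5.34 CPM at an MOI of 15, 30, 60 and 120, against 5.71 CPM in 1x GFP. Myf5 stood at 17.2, 20.4, 17.9 and 19.1 CPM in the same order, against 17.5 CPM in 1x GFP. Neither passed the test between the sets (adjusted p = 0.968 and 0.828, edgeR quasi-likelihood test). With lenti-MyoD, Myod1 stood at 313 and 639 CPM at 1x and 2x.

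Of 13825 genes tested, 3369 differed between the MOI series and 1x GFP at an adjusted p under 0.05 in edgeR's quasi-likelihood test, the background of 24.4% against which every gene group is read below. The 1677 genes higher in the MOI series (12.1%) and the 1692 lower genes (12.2%) were near equal in number, but the larger changes were mostly upward. Changes of at least 2-fold were called for 430 higher genes (3.11%) and 221 lower genes (1.6%), and changes of at least 8-fold for 85 higher genes and 4 lower genes. The median log2 fold change over all genes tested was -0.0021. In this test the single 1x GFP library is taken to vary like the libraries of the other groups. Without the MOI 30 library 2167 genes were called, and without the MOI 60 library 2183.

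The other libraries of the table were set beside both sets. Among the 1677 higher genes, all 4 MOI libraries stood above all 6 other libraries of the table for 1123 (67%), and 1x GFP stood below all 9 others for 488 (29.1%). Among the 1692 lower genes, the MOI libraries stood below all 6 others for 991 (58.6%) and 1x GFP above all 9 others for 619 (36.6%). Over all genes tested, the MOI libraries stood above the other 6 for 15.7% and below them for 14.9%. For 9.37% 1x GFP stood below the other 9, and for 10.9% above them. These shares are no like background for called genes, since a call favours genes whose MOI libraries all lie on 1 side of 1x GFP. Of 5087 genes with all 4 MOI libraries above 1x GFP, the MOI libraries stood above the other 6 for 2170. In 1296 of the 5087, 1x GFP stood below the other 9. Of 5219 genes with all 4 below it, the corresponding counts were 2065 and 1501. Part of the excess among called genes therefore comes with the call. Both kinds of gene are described below, beginning with the group that held the largest changes.

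Type I interferons are secreted when cells sense viral nucleic acid. They act through the receptor subunits Ifnar1 and Ifnar2 and the kinases Jak1 and Tyk2 on a transcription factor complex that includes Stat2 and Irf9, which binds a DNA element, the ISRE, at the promoters of its targets. Those targets include RNA-binding effectors, enzymes that degrade or mark RNA and proteins, large GTPases, and the antigen presentation machinery. In fibroblasts this response is the main defence of a cell that has no immune specialisation, and it also raises the sensors and transcription factors that set it off.

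The core of that element was taken as a pair of GAAA units separated by exactly 2 bases of any kind, and it was searched on both strands from 250 bases before to 50 bases after gene starts in RefSeq (mouse build GRCm38.p6). It occurred in 3.44% of all 32851 promoter windows and in 3.74% of the 9969 tested genes that have a window. Of 90 tested members of the effector, Oas, GTPase, Ifi200 and MHC class I lists described next, 68 had a window, and 39 of these (57.4%) held the core. Of those 39 members 29 were called higher in the MOI series, as were 21 of the 29 members without the core. Over all genes tested 12.1% were higher. None of these members was called lower, but some were under 1 CPM in 1x GFP, such as Rsad2 (0.0873 CPM). Those members passed the filter through other libraries and had little room for a lower call. Promoters are shown for 1 gene from each of 5 families: Isg15 (chr4:156200769-156201068, minus strand), Ifit1 (chr19:34640639-34640938, plus strand), Oas3 (chr5:120777610-120777909, minus strand), Irgm1 (chr11:48871371-48871670, minus strand) and Ifi203 (chr1:173942443-173942742, minus strand). Each runs 5′ to 3′ along its gene, with the matched bases in capitals.
Isg15: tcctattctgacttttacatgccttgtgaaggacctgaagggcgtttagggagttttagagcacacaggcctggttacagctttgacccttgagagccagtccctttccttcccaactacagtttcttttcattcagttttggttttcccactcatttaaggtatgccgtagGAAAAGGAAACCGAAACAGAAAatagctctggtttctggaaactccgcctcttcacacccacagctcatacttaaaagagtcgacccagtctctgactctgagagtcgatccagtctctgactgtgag
Ifit1: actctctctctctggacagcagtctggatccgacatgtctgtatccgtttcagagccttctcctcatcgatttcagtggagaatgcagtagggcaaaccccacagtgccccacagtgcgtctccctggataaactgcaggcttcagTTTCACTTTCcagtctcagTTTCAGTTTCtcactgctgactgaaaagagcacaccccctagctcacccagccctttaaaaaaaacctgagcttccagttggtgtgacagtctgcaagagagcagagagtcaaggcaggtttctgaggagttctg
Oas3: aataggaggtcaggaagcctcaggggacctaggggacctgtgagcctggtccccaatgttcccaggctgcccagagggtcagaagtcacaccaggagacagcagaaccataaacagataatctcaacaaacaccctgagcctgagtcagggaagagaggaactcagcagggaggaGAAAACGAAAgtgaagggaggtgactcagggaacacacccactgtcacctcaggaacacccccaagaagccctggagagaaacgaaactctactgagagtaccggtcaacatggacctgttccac
Irgm1: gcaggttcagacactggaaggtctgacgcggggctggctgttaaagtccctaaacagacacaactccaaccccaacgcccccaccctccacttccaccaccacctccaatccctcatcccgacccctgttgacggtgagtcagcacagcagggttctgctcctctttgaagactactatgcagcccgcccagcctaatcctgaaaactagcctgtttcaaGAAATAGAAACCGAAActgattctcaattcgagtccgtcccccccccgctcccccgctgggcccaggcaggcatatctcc
Ifi203: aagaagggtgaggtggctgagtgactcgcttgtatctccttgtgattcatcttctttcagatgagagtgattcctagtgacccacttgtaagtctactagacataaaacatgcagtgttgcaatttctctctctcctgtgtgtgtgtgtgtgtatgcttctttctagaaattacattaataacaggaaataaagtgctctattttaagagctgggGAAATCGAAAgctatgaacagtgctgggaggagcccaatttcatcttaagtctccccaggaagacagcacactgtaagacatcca
In Isg15, 3 overlapping matches form 1 run that begins 78 bases before the start of the gene. Ifit1 holds 2 separate matches, which read on the opposite strand, the first 104 bases before the start. In Irgm1, 2 matches overlap. The genes were picked for display after their values were seen. A match describes these letters and shows neither binding nor a cause.

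Antiviral effector genes stood far higher in the MOI series than in 1x GFP. Of 39 effector genes listed, 38 were tested, and of the 31 that reached 1 CPM in 1x GFP itself, 26 were higher and none lower. That count is set against 11.5% of all 13096 genes at that level in 1x GFP, and the median log2 fold change of these 31 genes was 2.29. Isg15, a ubiquitin-like protein that is attached to other proteins, stood at 39.6, 76.6, 89.6 and 173 CPM at an MOI of 15, 30, 60 and 120. In 1x GFP it stood at 3.04 CPM and in untransduced cells at 1.11 CPM, so the sets did not overlap (log2 fold change 4.96 ± 1.38 SE, adjusted p = 0.0328, edgeR). Usp18, the protease that removes Isg15, moved with it and stood at 79.4, 114, 138 and 201 CPM, against 6.85 CPM in 1x GFP (log2 fold change 4.28 ± 0.87).

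Ifit1, which binds the ends of foreign RNA, stood at 275, 425, 495 and 835 CPM in the MOI series, against 29.1 CPM in 1x GFP. Rsad2, or viperin, which makes a chain-terminating nucleotide, stood at 2.18, 3.89, 5.76 and 16.2 CPM, against 0.0873 CPM. Ifi44 stood at 52.7, 119, 141 and 312 CPM, against 4.30 CPM. For each of these genes all 4 MOI libraries lay far above 1x GFP. Zbp1, a sensor of left-handed nucleic acid, stood at 6.04, 14.1, 15.8 and 37.2 CPM, against 0.537 CPM in 1x GFP, and Mx2, a dynamin-like GTPase, at 26, 41.1, 45.2 and 73.1 CPM, against 2.43 CPM. Some effectors did not pass the test: the membrane proteins Ifitm1, Ifitm2 and Ifitm3, which block viral fusion, had log2 fold changes of -0.64, -0.40 and 0.72, and Ifi27 had -0.71. Usp18, Ifit1, Mx2, the Ifitm genes and Ifi27 were chosen for mention after their values were seen.

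The 2'-5'-oligoadenylate synthetases, which sense double-stranded RNA, held the largest increase among the genes that the naming rule picked. Oas2 stood at 17.2, 44.8, 62.8 and 119 CPM at an MOI of 15, 30, 60 and 120, against 0.324 CPM in 1x GFP and 0.294 CPM in untransduced cells, a log2 fold change of 7.55 ± 1.97 (SE, adjusted p = 0.0267, edgeR). The related Oasl2 stood at 93.9, 215, 241 and 459 CPM, against 3.36 CPM in 1x GFP. For both genes even the lowest MOI library was far above 1x GFP. Oas3 stood at 4.76, 11.1, 16.2 and 32.3 CPM, against 0.287 CPM, and Oas1b at 17.7, 24.2, 25.4 and 39.9 CPM, against 1.85 CPM. Of the 9 members tested, 4 reached 1 CPM in 1x GFP and all 4 were higher, with a median log2 fold change of 2.73. In each of them all 4 MOI libraries lay above 1x GFP, which held for 36.8% of all genes tested. The Oas1 genes have near-identical copies, so the split of reads between them is uncertain.

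Interferon-inducible GTPases gather on the membranes around intracellular pathogens. All 9 that reached 1 CPM in 1x GFP were higher in the MOI series, with a median log2 fold change of 3.87. Iigp1 stood at 26.3, 46, 57.5 and 158 CPM, against 1.83 CPM in 1x GFP. Irgm1, which regulates the others, stood at 224, 292, 309 and 466 CPM, against 56.3 CPM, and Gbp2, a guanylate-binding protein, at 90.0, 121, 131 and 195 CPM, against 26.5 CPM. The smallest change of the family was that of Gbp2, a 5.06-fold difference. Tgtp1 and Tgtp2 are near-identical copies whose reads cannot be assigned with certainty. They gave nearly the same values, 12.1, 21.2, 27.9 and 87 CPM for Tgtp1 and 12.1, 22, 28.5 and 87.9 CPM for Tgtp2, against 0.674 CPM and 0.611 CPM in 1x GFP. Gvin1, which also has close copies, stood at 10.7, 23.6, 29.7 and 66.9 CPM, against 0.886 CPM.

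Sensors and regulators of the response divided. Of 34 that reached 1 CPM in 1x GFP, 13 were higher and 3 lower. Over all genes at that level 11.5% were higher and 12.9% lower. The RNA sensors Ifih1 (MDA5) and Dhx58 (LGP2) stood at 38.5, 64.7, 68 and 116 CPM and at 44.8, 66.9, 71.2 and 110.0 CPM in the MOI series, against 7.44 CPM and 7.50 CPM in 1x GFP. Irf7, the factor that amplifies interferon production, stood at 103, 152, 175 and 293 CPM, against 16.2 CPM (log2 fold change 3.48 ± 0.83, adjusted p = 0.0195, edgeR). Stat2 stood at 467 to 765 CPM, against 153 CPM in 1x GFP, and Irf9 at 165 to 216 CPM, against 60.7 CPM.

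Most upstream parts of the pathway did not pass the test. The receptor genes Ifnar1 and Ifnar2 had log2 fold changes of -0.20 and -0.19, the kinases Jak1 and Tyk2 -0.15 and -0.02, the adaptor Mavs -0.12, the kinase Tbk1 0.16 and Irf3 0.15 (adjusted p from 0.114 to 0.878, edgeR). The 3 lower genes were Tlr4 (-0.48), a sensor of bacterial lipopolysaccharide, Ifngr2 (-0.35), a subunit of the interferon-gamma receptor, and Stat3 (-0.35). These members were named after their values were seen. Ifnb1, the gene of interferon beta, did not pass the filter on low counts.

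Antigen presentation by MHC class I changed in smaller steps. Of 18 of its genes at 1 CPM or more in 1x GFP, 9 were higher and none lower, with a median log2 fold change of 1.06. B2m, the invariant light chain, stood at 1220.1, 1526, 1555 and 2096 CPM, against 724 CPM in 1x GFP, and 2x Myf5 reached 1615 CPM. H2-T24, a non-classical heavy chain, stood at 15.7, 18, 16.8 and 27 CPM, against 3.44 CPM, and Psmb8, an immunoproteasome subunit, at 2.82, 5.43, 6.02 and 10.7 CPM, against 0.574 CPM. The peptide transporter gene Tap1 stood at 46.3 to 86.5 CPM, against 21.1 CPM. H2-Q6 and H2-Q7 stood above all 6 other libraries at each MOI, with 3.17, 3.89, 3.97 and 5.19 CPM for H2-Q6, against 0.287 CPM in 1x GFP, but their sequences are so alike that they count as 1 uncertain signal. The classical heavy chains H2-K1 and H2-D1, with log2 fold changes of 1.27 and 1.20, were just outside the threshold (adjusted p = 0.0512 and 0.0518, edgeR).

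Among the Ifi200 genes, whose products sense DNA, 6 of the 9 at 1 CPM or more in 1x GFP were higher, against 2 without MOI 30 or 60, 3 without MOI 120 and 3 with limma-voom. Ifi203 stood at 63.7, 108, 120.2 and 209 CPM, against 5.96 CPM in 1x GFP, and Mndal at 32.9, 45.3, 56.6 and 100.3 CPM, against 4.48 CPM. These genes form a cluster of close copies, which makes the value of a single member uncertain.

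**Figure D1:**
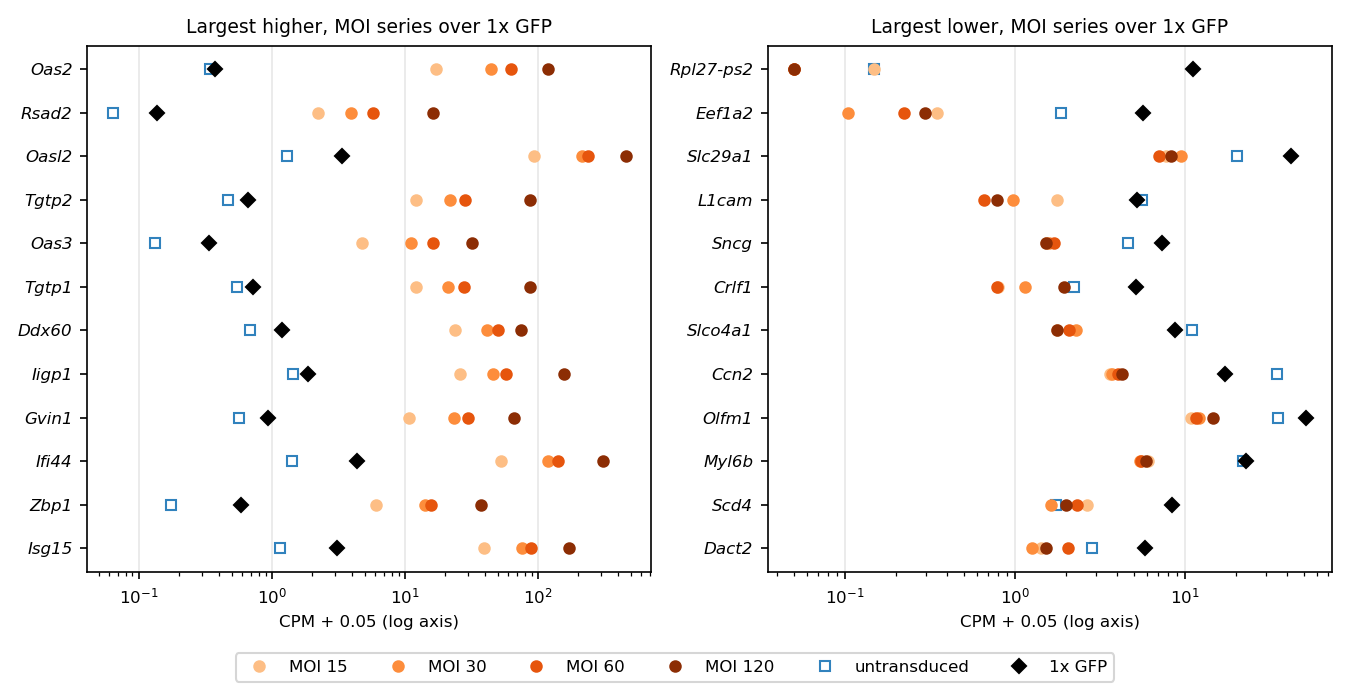
Level of the 12 genes with the largest called increase (left) and the 12 with the largest called decrease (right) in the MOI series over 1x GFP, by library, as TMM-normalised CPM plus 0.05 on a log axis. Circles are the 4 MOI libraries, open squares the untransduced library and diamonds 1x GFP; on the left every circle lies far right of the diamond and the squares lie at or left of it (Isg15 39.6 to 173 CPM against 3.04 CPM), and on the right every circle lies left of it.

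The untransduced and Myf5 libraries placed 1x GFP within the table. Relative to 1x GFP, the median log2 difference over the effector genes, computed on CPM plus 0.5 and over all 38 tested members, was 2.07, 2.72, 2.72 and 3.26 at an MOI of 15, 30, 60 and 120. It was 1.11 with lenti-Myf5 at 1x and 2.75 at 2x, 0.19 and 0.10 with lenti-MyoD, and -0.52 in untransduced cells. Cells at 2x Myf5 therefore reached the range of the MOI series, and 1x GFP stood nearest to the MyoD and untransduced libraries. Oasl2, for example, reached 19.8 and 191 CPM at 1x and 2x Myf5. The 2 Myf5 libraries and the 4 MOI libraries both entered the estimate of spread, and the standard errors of interferon genes were wide. Of the named genes, Oas3, Rsad2, Zbp1, Gvin1, Psmb8, Ifi204 and Ifi207 were not called without the MOI 30, 60 or 120 library, with adjusted p up to 0.0835. Isg15, Ifi44, Iigp1, Tgtp1, Tgtp2 and B2m were not called without MOI 30 or 60 (adjusted p up to 0.0677), nor Oas2 without MOI 60 (0.0517). Among members at 1 CPM or more in 1x GFP, leaving out 1 MOI library gave 19 to 26 higher effector genes, 8 or 9 GTPases, 4 Oas genes, 6 to 12 antigen presentation genes and 2 to 6 Ifi200 genes. Their median log2 fold changes stayed positive. Of the effector genes at that level 1 was lower with the DESeq2 Wald test. Some were lower with only the 5 GFP libraries or without 1 MyoD or Myf5 library. With limma-voom 22 of these effector genes, 7 GTPases, 3 Oas genes, 10 antigen presentation genes and 3 Ifi200 genes were higher. Of the genes named above, limma-voom did not call Isg15, Rsad2, Ifi44, Zbp1, Oas2, Oasl2, Oas3, Iigp1, Tgtp1, Tgtp2, Gvin1, Psmb8 and Ifi207, with adjusted p from 0.0764 (Oasl2) to 0.27 (Rsad2).

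**Figure D2:**
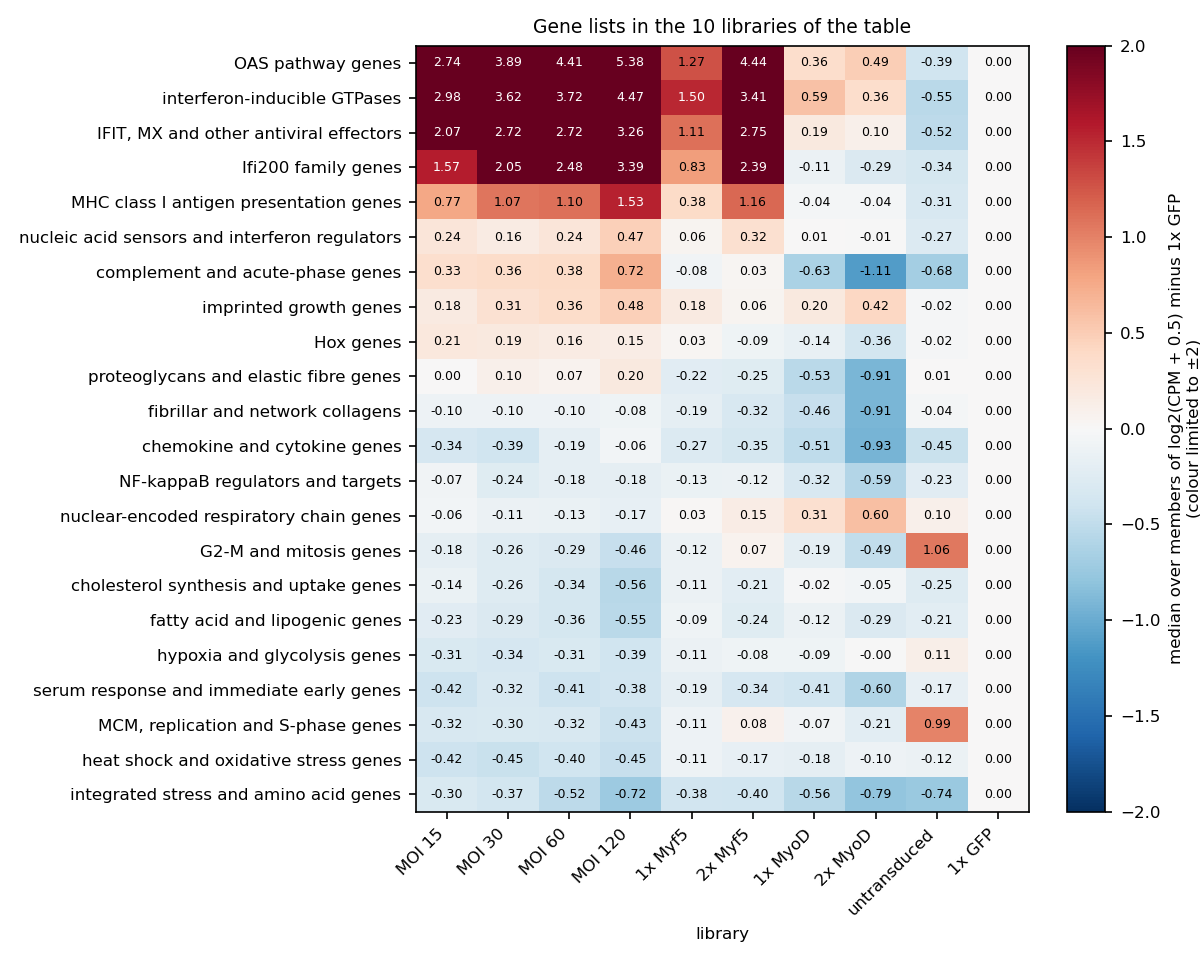
Median over the tested members of 22 gene lists (rows) of the log2 difference in CPM + 0.5 from 1x GFP, in the 10 libraries of the table (columns), with the value printed in each cell and colour limited to ±2. The interferon lists at the top are raised in the 4 MOI libraries and in 2x Myf5 (2.07 to 3.26 and 2.75 for the effector genes), and less so in 1x Myf5 (1.11). In untransduced cells they are not raised (-0.52 for the effector genes). The list of sensors and regulators differs less, at 0.16 to 0.47 in the MOI libraries. The lists of S-phase and mitotic genes are raised in untransduced cells.

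Chemokine genes changed in both directions. The interferon-inducible chemokine Cxcl10, which draws T cells, stood at 22.7, 29.8, 40.9 and 71.6 CPM in the MOI series, against 4.87 CPM in 1x GFP, and was not called without MOI 60 (adjusted p = 0.0555). Ccl11, which attracts eosinophils, stood at 43.8, 52.2, 61.4 and 116 CPM, against 11.9 CPM, above all 6 other libraries. By contrast Cxcl1, which attracts neutrophils, stood at 31.1, 26.1, 23.8 and 24.9 CPM, against 70.8 CPM in 1x GFP. Ptgs2, the inducible enzyme of prostaglandin synthesis, stood at 25.1, 27.1, 24.2 and 31.9 CPM, against 78.4 CPM, and both were lower (log2 fold change -1.42 ± 0.18 and -1.53 ± 0.23, adjusted p = 0.00228 and 0.00363, edgeR). Of 22 chemokine and cytokine genes at 1 CPM or more in 1x GFP, 3 were higher and 6 lower, with a median log2 fold change of -0.49. Over all genes at that level 11.5% were higher and 12.9% lower. Among all 25 tested members 5 were higher and 6 lower. For these 25, leaving out 1 MOI library gave 2 to 4 higher (2 without MOI 30 or 60) and 4 to 6 lower.

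NF-kappaB is a transcription factor of inflammation. Of 18 tested regulators and targets 1 was higher (Map3k8, 0.64, not called with any 1 MOI library left out) and 6 were lower, with log2 fold changes from -0.50 (Sod2) to -0.39 (Relb), among them Rela (83.1 ± 2.48 CPM against 117 CPM) and Nfkb1 (173 ± 1.19 CPM against 243 CPM; mean ± SD, n = 4 against 1). Without MOI 60 the lower count was 3. The complement and acute-phase list had 5 of 19 members higher and 1 lower, 31.6% called against 24.4% of all genes. Of its 16 members at 1 CPM or more in 1x GFP, 4 were higher and 1 lower. Apod, a lipid-binding protein, stood at 91.2, 136, 128 and 261 CPM, against 21.2 CPM, C1s2, a complement protease, at 31.7, 32.2, 31 and 38.8 CPM, against 9.72 CPM, and Steap4, a metalloreductase, at 109, 99.5, 103 and 144 CPM, against 36.2 CPM. For all 3, each MOI library exceeded all 6 other libraries, 2x Myf5 included.

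**Figure D3:**
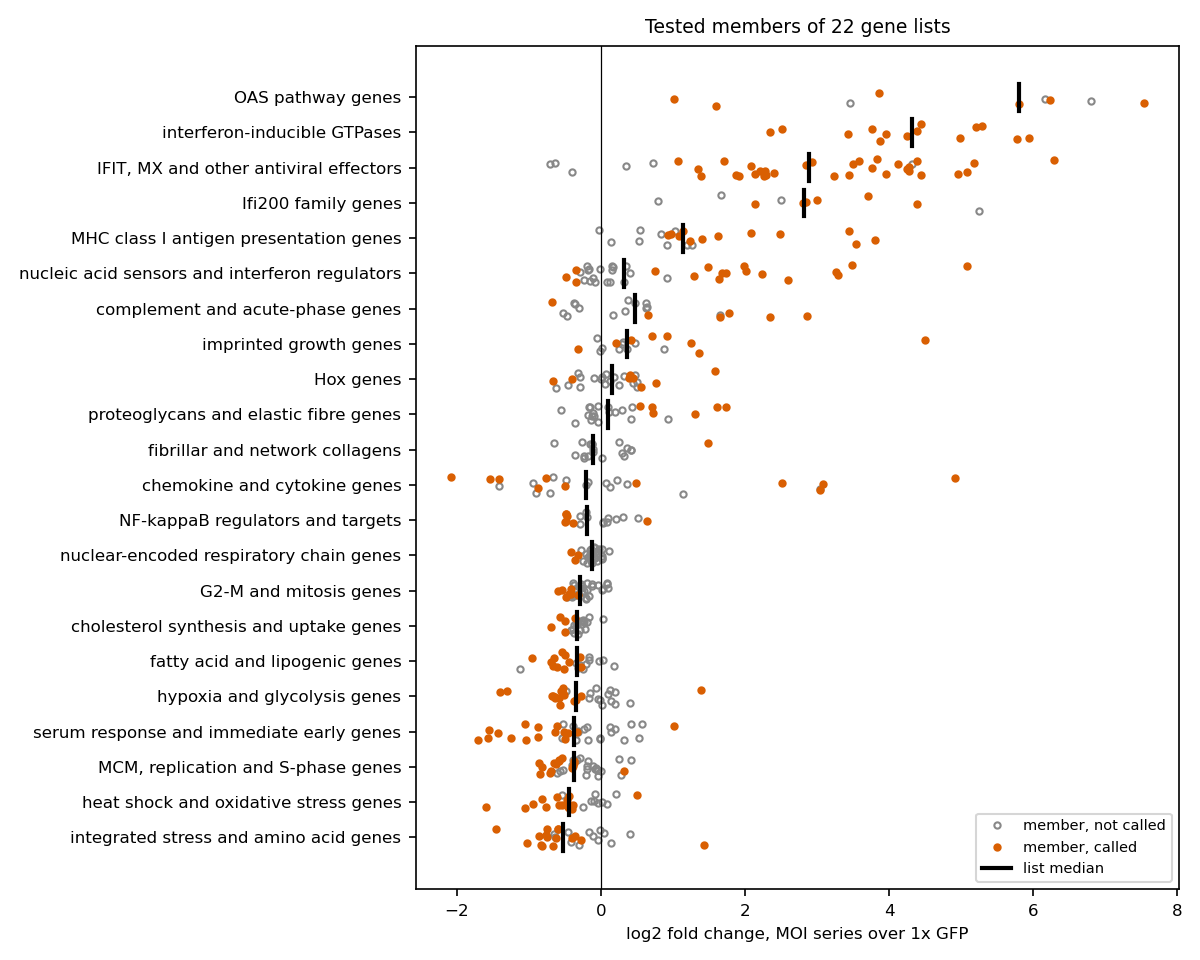
Log2 fold change of the MOI series over 1x GFP for every tested member of 22 lists; filled circles passed the test, open circles did not, and the bar is the list's median. The interferon lists lie to the right, although their medians include members under 1 CPM in 1x GFP that passed the filter through other libraries (the Oas median is 5.8 over all 9 members and 2.73 over the 4 at 1 CPM or more), and the lists of serum response, stress, glycolysis, lipid and S-phase genes lie left of 0 with medians down to -0.53.

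Genes induced by serum and growth factors included a group that was lower in the MOI series. The ERK kinase cascade and the serum response factor Srf switch on immediate early transcription factors and the phosphatases that shut the cascade off again. Of 34 tested genes of this list 15 were lower and 1 higher, against a background of 12.2% lower, with a median log2 fold change of -0.37. Dusp6, a phosphatase of ERK that serves as a readout of the cascade, stood at 19.2, 18.5, 18.9 and 20.8 CPM at an MOI of 15, 30, 60 and 120, against 63 CPM in 1x GFP and 47.9 CPM in untransduced cells. The MOI values lay close together and below all 6 other libraries (log2 fold change -1.70 ± 0.14, adjusted p = 0.000610, edgeR).

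Myc stood at 9.76, 12, 10.9 and 9.90 CPM, against 31.2 CPM in 1x GFP, and Fosl1, an AP-1 subunit, at 10.1, 10.5, 10.7 and 12.1 CPM, against 32.2 CPM. Dusp4, another phosphatase of the cascade, stood at 10.9, 12.1, 13.8 and 13.3 CPM, against 33.7 CPM. They were 2.93-fold, 2.98-fold and 2.69-fold lower in the MOI series, and all 3 were called whichever MOI library was left out. Spry4, an inhibitor of receptor tyrosine kinases (-1.26), and Jun (-1.04) followed. The exception was Fos, at 1.88, 1.92, 1.48 and 2.21 CPM, against 0.923 CPM, which was higher from a low level. Egr1, Nr4a1 and Klf4 were not called. Of the 15 lower members, 14 were lower in each of the 4 fits that left out 1 MOI library.

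The CArG box, to which Srf binds, occurred in 1.63% of promoter windows and in 1.67% of the tested genes with one. Among the serum response and smooth muscle lists it occurred in 7 of 38 members with a window (18.4%), of which 3 were lower and 4 not called. Of the 31 members without it 10 were lower and 1 was higher. It is shown for Vcl (chr14:20929148-20929447, plus strand), a cytoskeletal linker, with 1 match 227 bases before the gene start, and Srf (chr17:46556113-46556412, minus strand), with 2, because both were lower in the MOI series (-0.34 and -0.51). Matches are in capitals.
Vcl: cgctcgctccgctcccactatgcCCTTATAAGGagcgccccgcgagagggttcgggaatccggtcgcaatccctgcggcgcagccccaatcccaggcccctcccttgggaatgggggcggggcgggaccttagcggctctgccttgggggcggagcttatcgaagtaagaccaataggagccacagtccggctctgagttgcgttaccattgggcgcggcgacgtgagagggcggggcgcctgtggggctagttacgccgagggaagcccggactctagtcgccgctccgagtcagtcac
Srf: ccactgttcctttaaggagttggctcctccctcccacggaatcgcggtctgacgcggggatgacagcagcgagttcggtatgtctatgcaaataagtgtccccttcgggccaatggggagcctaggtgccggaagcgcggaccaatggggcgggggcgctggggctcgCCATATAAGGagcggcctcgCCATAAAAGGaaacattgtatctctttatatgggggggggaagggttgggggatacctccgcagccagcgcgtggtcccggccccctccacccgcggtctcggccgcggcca

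Targets of the mechanosensitive factor YAP and contractile genes were lower at a few members. Ccn2, a matricellular protein and the standard YAP target, stood at 3.57, 3.67, 4.01 and 4.21 CPM, against 17.1 CPM in 1x GFP and 35 CPM in untransduced cells, a 4.43-fold decrease (log2 fold change -2.15 ± 0.10, adjusted p = 3.05e-05, edgeR). Its relative Ccn1 stood at 24.1, 24.2, 23.6 and 26.6 CPM, against 51 CPM, and Ankrd1 at 18.8, 19.7, 20.6 and 21.8 CPM, against 38.8 CPM. Yet only 4 of 20 YAP targets were lower and 1 higher, 25% called against 24.4% of all genes tested. The list's median was 0.01 and changed sign under some alternatives. In the smooth muscle list 4 of 15 members were lower: Acta2 (alpha smooth muscle actin, 223, 216, 220.4 and 185 CPM, against 443 CPM), Tagln (57.8, 54.8, 58.1 and 48.6 CPM, against 120.2 CPM), Mylk, the kinase of myosin light chain (1.39, 1.81, 1.40 and 2.06 CPM, against 5.37 CPM) and Cnn2 (279.9 ± 13.5 CPM against 367 CPM). The called share of the smooth muscle list was 26.7%, near the 24.4% of all genes, of which 12.2% were lower. The Cnn2 call did not hold without MOI 30 or 60 (adjusted p up to 0.053). In bulk RNA, fewer cells of a kind and less RNA per cell cannot be told apart.

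Secreted factors and their antagonists followed. Grem1, an antagonist of BMP ligands, stood at 267, 322, 367 and 439 CPM, against 900.4 CPM in 1x GFP and 741 CPM in untransduced cells. The BMP targets Id3 (10.3 ± 1.56 CPM against 19.6 CPM) and Smad6 (6.91 ± 0.441 CPM against 12.6 CPM) were lower as well. In the TGF-beta, BMP and activin list 9 of 28 tested genes were lower and 3 higher. The called share was 42.9%, against 24.4% of all genes. Igfbp7, which binds insulin-like growth factors, stood at 73.4, 82.3, 91.7 and 102 CPM, against 263 CPM, and Ereg, a ligand of the EGF receptor, at 15.4, 14, 15.7 and 15 CPM, against 40.5 CPM. Wnt5a went the other way, at 89.4, 90.2, 89.8 and 93.7 CPM, against 41 CPM, above all 6 other libraries. Leaving out any MOI library lowered the count of lower TGF-beta genes to 7.

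The integrated stress response, in which Atf4 raises amino acid synthesis and uptake, had 15 of 28 members lower and 1 higher. That is 57.1% called, against 24.4% of all genes, with a median log2 fold change of -0.53. Cebpb, a transcription factor, led it at 49.7, 45.1, 45.6 and 39.7 CPM, against 124 CPM in 1x GFP (log2 fold change -1.46 ± 0.12, adjusted p = 0.000528, edgeR). Psat1, an enzyme of serine synthesis, stood at 141, 117, 116 and 94.9 CPM, against 239 CPM, and Asns, asparagine synthetase, at 111, 96.1, 86.9 and 69.6 CPM, against 152 CPM. In untransduced cells Asns stood at 64 CPM and Cebpb at 64.2 CPM, and the list's median difference from 1x GFP there was -0.74 (CPM + 0.5), against -0.30 to -0.72 in the MOI libraries. For Asns and Cebpb 1x GFP stood above all 9 other libraries. Atf4 (-0.30) and Ddit3 (0.40) were not called. Without MOI 30, 60 and 120 in turn, 8, 7 and 10 members were lower, and Asns was not called (adjusted p up to 0.0924). Slc7a3, an arginine transporter, was the higher member, at 2.53, 2.85, 3.14 and 2.94 CPM, against 1.06 CPM.

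Oxidative stress genes were lower in the same libraries. Nqo1, a quinone reductase and target of Nrf2, stood at 21.5, 22.4, 23.5 and 19.7 CPM, against 66 CPM in 1x GFP and 54.4 CPM in untransduced cells. The metallothionein Mt1 stood at 267, 239, 242 and 212 CPM, against 425 CPM, and Gsta4, a glutathione transferase, at 46.4, 45.1, 47.7 and 52.8 CPM, against 92.3 CPM. Of 24 members 14 were lower and 1 higher, 62.5% called against 24.4% of all genes tested. Whichever MOI library was left out, 13 were lower. The chaperone genes of the list differed among themselves: Hspa1b was lower (-0.58), Hsph1 higher (0.51), and Hspa8 (0.01) and Hsp90aa1 (0.08) were not called. Of 13 glucocorticoid-induced genes, 6 were lower (46.2%, against 12.2% of all genes), led by Cebpd at 31, 29.6, 26.5 and 27.7 CPM, against 83.7 CPM.

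Several glycolysis genes were lower in the MOI series. Of 29 tested genes of hypoxia and glycolysis 15 were lower and 1 higher, 55.2% called against 24.4% of all genes. For 14 of the 29 all MOI libraries lay below all 6 others, against 14.9% of all genes. Slc2a1, the glucose transporter, stood at 57.7, 57.5, 58.4 and 57.7 CPM, against 92.8 CPM in 1x GFP. Gapdh stood at 1351, 1249, 1240.4 and 1083 CPM, against 1961 CPM, and Pgk1 at 421, 383, 384 and 355 CPM, against 554 CPM. Aldoa (-0.64), Eno1 (-0.58), Pkm (-0.53) and Ldha (-0.64) gave changes of similar size and were named after their values were seen. The hypoxia targets that are not enzymes of glycolysis split, with Adm, a vasodilator peptide, lower (4.66, 4.99, 5.28 and 5.68 CPM, against 12.7 CPM) and Vegfa (0.10) and Bnip3 (0.14) not called. The respiratory chain had 3 of 32 members lower (9.38% called), but in 21 of the 32 the MOI series lay below all 6 others. Leaving out MOI 30, 60 or 120 gave 12 lower glycolysis and hypoxia genes. For the respiratory chain 1 gene was lower without MOI 30 and 2 without MOI 15, 60 or 120.

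Lipid genes showed small steps of the same sign. Of 22 lipogenic genes 11 were lower and none higher, 50% called against 24.4% of all genes tested. The desaturases Fads2 and Fads3 stood at 231 ± 24.6 CPM and 48.9 ± 5.23 CPM, against 362 CPM and 95.2 CPM in 1x GFP (mean ± SD, n = 4 against 1), and the stearoyl desaturase Scd2 had a log2 fold change of -0.61. In cholesterol synthesis 5 of 24 members were lower, a called share of 20.8% that was below the 24.4% of all genes. A negative value was found for 23 members. For 21 all 4 MOI libraries lay below 1x GFP, as for 37.8% of all genes. Without MOI 30 or 60, 2 cholesterol genes were lower, and 17 were with log2 MOI as a covariate. Fasn and Acly, which supply fatty acids, were not called (-0.21 and -0.31).

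**Figure D4:**
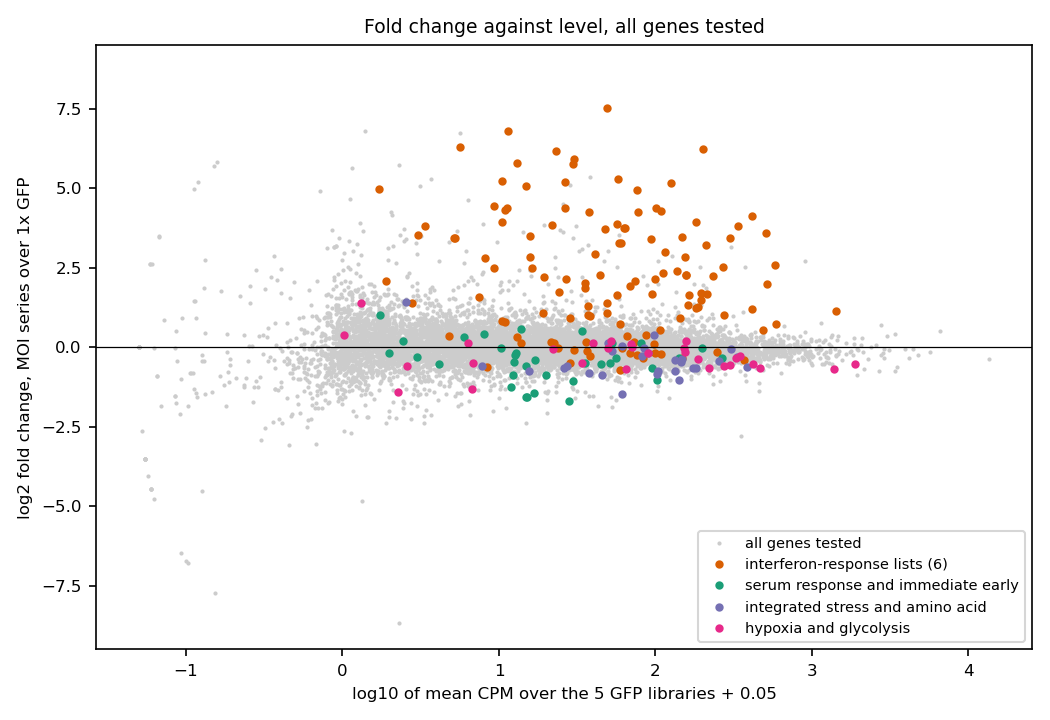
Log2 fold change of the MOI series over 1x GFP against log10 of the mean CPM over the 5 GFP libraries (plus 0.05), for all 13825 genes tested (grey) and for 4 gene groups in colour. The 6 interferon lists reach 7.55 (Oas2) across the whole range of level, and the serum response, stress and glycolysis genes lie mostly below 0 with changes to -1.7 (Dusp6).

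Of 36 S-phase genes 14 were lower in the MOI series than in 1x GFP and 1 was higher, 41.7% called against 24.4% of all genes. Rrm2, the ribonucleotide reductase subunit, stood at 23.4, 20.2, 22.1 and 18.4 CPM, against 37.2 CPM in 1x GFP, and 93.5 CPM in untransduced cells. Tk1, thymidine kinase, stood at 14.5, 11.8, 11.5 and 9.65 CPM, against 21.6 CPM and 66.7 CPM, and Cdt1, a licensing factor, at 12.7, 14.5, 13.7 and 13.3 CPM, against 24.3 CPM and 32.7 CPM. The median difference of the list from 1x GFP was -0.30 to -0.43 in the MOI libraries and 0.99 in untransduced cells (CPM + 0.5). Of 36 G2-M genes 7 were lower and none higher, with Ccnb1, the mitotic cyclin, at 38.5 ± 2.30 CPM, against 52.2 CPM. The called share of G2-M genes, 19.4%, was below that of all genes. These counts depended on single libraries. Leaving out an MOI library gave 8 to 11 lower S-phase genes, and 5, 1, 2 and 4 lower G2-M genes without MOI 15, 30, 60 and 120. Ccnd1, the G1 cyclin, was lower in each of these fits, at 139 ± 8.79 CPM, against 237 CPM.

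Of 17 tested imprinted growth genes 7 were higher and 1 was lower, 47.1% called against 24.4% of all genes. H19, a long non-coding RNA that is silenced on the paternal allele, stood at 33.8, 31.9, 26.4 and 34 CPM at an MOI of 15, 30, 60 and 120, against 1.39 CPM in 1x GFP and 2.81 CPM in untransduced cells. That is a 22.7-fold difference (log2 fold change 4.5 ± 0.40, adjusted p = 0.000652, edgeR). The MOI series was not the extreme of the table: with lenti-MyoD at 1x and 2x H19 stood at 206 and 304 CPM, and with lenti-Myf5 at 35.8 and 57.6 CPM. Igf2, its neighbour with the opposite imprint, had 0.728 ± 0.343 CPM, against 0.399 CPM, and was not called. Meg3, another maternally expressed RNA, stood at 170.2, 198, 201 and 235 CPM, against 78.4 CPM, and Peg3, a paternally expressed zinc-finger gene, at 135, 147, 148 and 156 CPM, against 77.9 CPM. Both stood above all 6 other libraries. Plagl1, a regulator of other imprinted genes, stood at 35.3, 46.6, 44.6 and 60.4 CPM, against 19.6 CPM, with 55.4 and 79.1 CPM at 1x and 2x MyoD. Gnas was the lower member (-0.32) and was not called without MOI 30 or 60 (adjusted p up to 0.0732).

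Among 18 tested genes of silencing and retroelement restriction 5 were higher and 2 lower, 38.9% called against 24.4% of all genes. Dnmt3a, a de novo methyltransferase, stood at 30.9, 33.2, 31.1 and 33.6 CPM, against 17.5 CPM, and the demethylases Tet1 and Tet2 stood at 16.5 ± 1.05 CPM and 16.2 ± 0.553 CPM, against 10.3 CPM and 10.1 CPM in 1x GFP. Every MOI library exceeded all 6 others for these 3. Among 26 tested Hox genes, which record a fibroblast's position in the body, 6 were higher and 2 lower. The called share was 30.8%, against 24.4% of all genes tested. Of the 23 at 1 CPM or more in 1x GFP, 5 were higher and 2 lower. Hoxb7 was higher (36.1, 37.1, 36.1 and 40.9 CPM, against 22.1 CPM) and so, at a low level, was Hoxa10 (1.49, 1.86, 1.00 and 1.37 CPM, against 0.474 CPM). Hoxb9 was lower (6.69 ± 0.537 CPM against 10.6 CPM), so the cluster did not move as a unit. Without MOI 30 or 60, 3 Hox genes were higher. Osr2, a factor of limb and palate mesenchyme, stood at 68.2, 68.7, 71.2 and 69.9 CPM, against 34.3 CPM. Y-linked Ddx3y was higher (91.1 ± 5.91 CPM against 67.1 CPM) and its X-linked relative Ddx3x lower (253 ± 10.00 CPM against 317 CPM), by 1.36-fold and 1.25-fold.

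Some extracellular matrix genes differed between the sets. Decorin (Dcn), a proteoglycan that binds collagen, stood at 2939.7, 2983, 2934 and 3101 CPM, against 1836 CPM in 1x GFP. Kera, another small proteoglycan, stood at 25.2, 22.2, 19.5 and 21.3 CPM, against 7.19 CPM, Mfap4, a microfibril protein, at 202, 218, 201 and 248 CPM, against 88.1 CPM, and elastin (Eln) at 4.31, 4.77, 3.32 and 4.31 CPM, against 1.25 CPM. The list of proteoglycans and elastic fibre genes had 6 of 24 members higher and none lower (4 or 5 higher with an MOI library left out). That is 25% called, against 24.4% of all genes tested in either direction and 12.1% higher. Of 22 tested matrix proteases and inhibitors 2 were higher and 5 lower. Of 19 tested collagens only Col11a1 was higher (33.5, 48.9, 40.6 and 58.3 CPM, against 16.2 CPM), and none was lower. Spp1, osteopontin, was lower at 186, 187, 196 and 179 CPM, against 418 CPM, and so was Thy1 (304, 308, 308 and 307 CPM, against 517 CPM), a fibroblast surface marker.

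Further large decreases were called outside these groups. Eef1a2, the translation elongation factor of muscle and neurons, stood at 0.297, 0.0548, 0.174 and 0.245 CPM, against 5.60 CPM in 1x GFP and 1.83 CPM in untransduced cells. Its decrease of 28.3-fold was the largest among the called protein-coding genes that the naming rule picked. Slc29a1, a nucleoside transporter, stood at 7.68, 9.43, 6.98 and 8.23 CPM, against 41.9 CPM, and Olfm1, a secreted glycoprotein, at 10.9, 12.1, 11.6 and 14.6 CPM, against 51.9 CPM. All 3 were higher still with lenti-MyoD, at 7.23 and 8.85 CPM, 174 and 329 CPM and 142 and 179 CPM at 1x and 2x. Myl6b, a myosin light chain, stood at 6.04, 5.38, 5.45 and 5.83 CPM, against 22.9 CPM, and at 33 and 58.9 CPM with MyoD.

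The sarcomere list nevertheless gave no call in either direction among 15 tested genes, of which 2 reached 1 CPM in 1x GFP. Myog, the myogenic factor downstream of MyoD, had no count in any MOI library, which allows up to 0.0375 CPM over the 4 libraries for counting error, and 0.512 CPM in 1x GFP. It was not called (adjusted p = 0.446, edgeR). Mef2c was the called member of 16 myogenic factors, at 3.91, 6.25, 5.37 and 6.42 CPM, against 1.92 CPM, and was not called without MOI 30, 60 or 120 (adjusted p up to 0.0584).

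Marker lists of other cell types were summed per library. The 18 macrophage and leukocyte genes summed to 21.2 to 28.3 CPM in the MOI series and 33.7 CPM in 1x GFP. Adgre1 and C1qa were at 0 in both sets and Ptprc was at 0 in 1x GFP. Of the 5 that were tested, Lyz2 (0.693 ± 0.188 CPM against 2.81 CPM) and Cd53 were lower. Endothelial genes summed to 6.06 to 6.79 CPM, against 9.4 CPM in 1x GFP, with Vwf lower and Tie1 and Cldn5 at 0. Neuron and glia genes summed to 121 to 133 CPM, against 136 CPM, with Map2 and Tubb3 lower (Tubb3 was not called without MOI 30 or 60), Mbp higher (15.7, 15.1, 15.1 and 17.4 CPM, against 8.96 CPM, above all 6 other libraries) and Sox10 and Snap25 at 0. Adipocyte genes summed to 170 to 183 CPM, against 232 CPM, with Fabp4 and Lpl lower and Adipoq and Plin1 at 0. What part such cells had in the differences was not tested.

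A last set of transcripts separated the MOI series from all 6 other libraries by a wide margin, and these were chosen after their values were seen. Gm13340, an unprocessed pseudogene in GENCODE, stood at 366, 357, 373 and 380.4 CPM in the MOI series, against 41.7 CPM in 1x GFP and 36.2 to 56.8 CPM in the other 5 libraries. Gm13339 and Gm13341, of the same class, stood at 41.8 to 47.7 CPM and 221 to 247 CPM, against 4.79 CPM and 40.2 CPM in 1x GFP. Gm10073 stood at 71.9, 75.1, 73.6 and 67 CPM, against 6.19 CPM, and the pseudogene Rps23-ps2 at 17.8 to 19.6 CPM, against 3.49 CPM. Reads of such copies can be assigned to more than 1 place, so these values are uncertain. Rn7sk, a small nuclear RNA that holds back transcription elongation, stood at 43.5, 61.6, 54.3 and 67 CPM, against 8.55 CPM, and Gm23935, annotated as a miRNA, was lower at 101, 125, 265 and 152 CPM, against 1114 CPM. Protein-coding genes were among them too: Islr, a marker of mesenchymal stromal cells, stood at 92.6, 104, 94.1 and 104 CPM, against 20.8 CPM in 1x GFP and 17.7 to 24.0 CPM elsewhere, and Cilp, a cartilage matrix protein, at 13.8, 12.1, 12.2 and 9.36 CPM, against 1.20 CPM. The ribosomal pseudogene Rpl27-ps2 split the table otherwise, with 2 counts over the MOI series, 11.1 CPM in 1x GFP, 0.0979 CPM in untransduced cells and 5.39 and 0.189 CPM with MyoD at 1x and 2x.

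Calls also varied with the kind and length of a gene. Of 12202 protein-coding genes tested, 24.1% were called, and of 124 processed pseudogenes 36.3%, 29 of them higher and 16 lower. Among protein-coding genes with an exonic length up to 1 kb, 6.28% were higher and 16.1% lower in the MOI series, with a median log2 fold change of -0.15. Above 8 kb, 18.2% were higher and 9.54% lower, with a median of 0.05. Relative to 1x GFP, the medians in these classes were -0.05 and 0.07 in untransduced cells, -0.05 and 0.04 at 1x Myf5 and -0.05 and 0.06 at 2x Myf5. They were -0.01 and 0.03 at 1x MyoD and 0.06 and 0.02 at 2x MyoD. Ribosomal protein genes, which are short, had 9 of 42 members lower and none higher (4 lower without MOI 30), and 5 of 18 reference genes were lower, among them Actb (1190.5 ± 92.3 CPM against 1675 CPM) and Gapdh. The called share was 21.4% for ribosomal protein genes and 33.3% for reference genes, against 24.4% of all genes tested. What part gene length had in the group results was not tested.

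**Figure D5:**
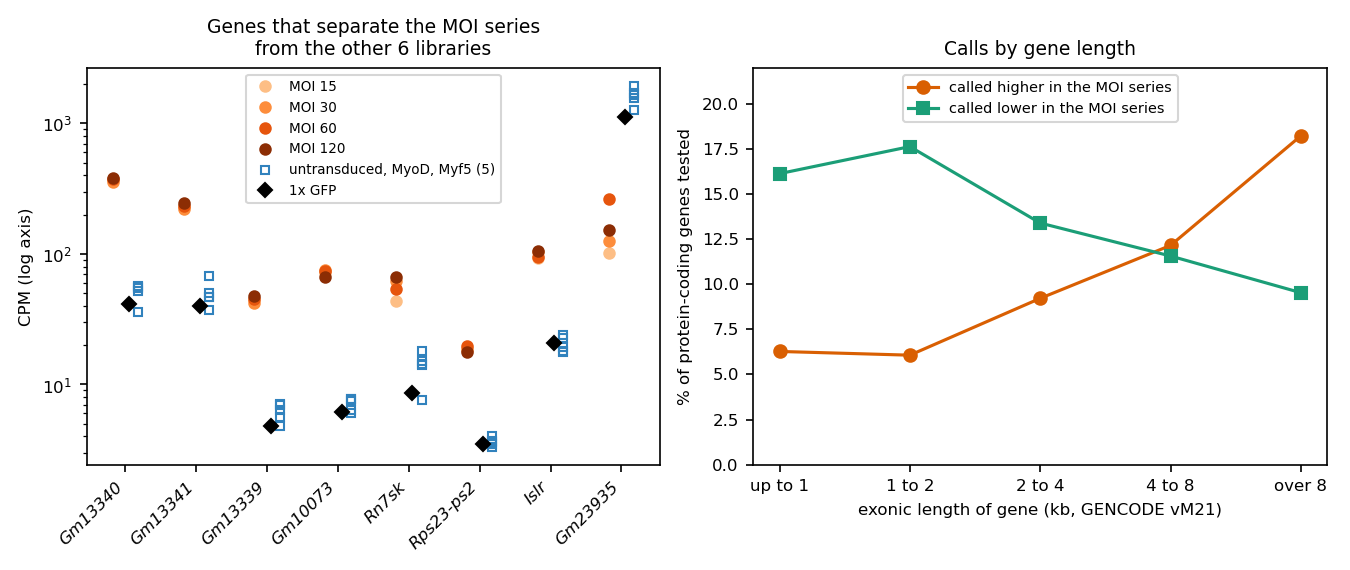
Left, CPM on a log axis of 8 genes that separate the 4 MOI libraries (circles) from 1x GFP (diamonds) and the other 5 libraries (squares), such as Gm13340 at 357 to 380 CPM against 41.7 CPM in 1x GFP. Right, share of tested protein-coding genes called higher (circles) and lower (squares) in the MOI series by exonic length; the higher share goes from 6.28% in the shortest class to 18.2% in the longest.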

How the data were processed

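RNA abundance was taken from 1 deposited table of expected counts per gene for 10 libraries, which the authors made from oligo-dT selected RNA sequenced on an Illumina HiSeq 2500. CASAVA 1.8.2, TopHat2 2.0.8 and the mouse build mm9 are named in the submitters' processing notes, and the program that counted reads and its annotation are not given in the sources used here. Counts were rounded to whole numbers, since some genes had values that were not whole. Of 37287 gene identifiers 32610 were paired with a symbol through a table of gene names, and gene types and exonic lengths came from GENCODE vM21.

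Genes with at least 1 CPM in at least 2 of the 10 libraries were tested with edgeR 4.0.16 in R 4.3.3 (TMM normalization, quasi-likelihood test, two-sided, Benjamini-Hochberg adjustment over all 13825 genes, threshold 0.05). The groups were the MOI series (n = 4), 1x GFP (n = 1), MyoD (n = 2), Myf5 (n = 2) and untransduced (n = 1), with no covariate. Libraries of different MOI or dose within a group were thus treated as replicates. Levels are TMM-normalised CPM, which are not corrected for gene length, and an error after a log2 fold change is its standard error. Depth per library is given with the results and limits mainly genes under 1 CPM in the shallower MOI libraries. Alternatives used limma 3.58.1 and DESeq2 1.42.0, other scalings and filters, thinned counts, a log2 MOI covariate, only the GFP libraries, and each replicate left out. The script was tested on simulated data.

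The members and gene lists were chosen with earlier results of these data known. Genes were named by this rule: the 12 largest called increases and decreases among genes at a mean of at least 5 CPM in the higher set, up to 4 called members of each list at a mean of at least 2 CPM, Myod1, Myf5, Myog and the housekeeping genes. Genes given outside the rule were chosen after their values were seen. They are the uncalled genes given as exceptions, the genes set apart from all 6 other libraries, and Asns, Fos, Jun, Spry4, Srf, Vcl, Gbp2, Irgm1, Ifit1, Mx2, Usp18, Irf9, Stat2, Stat3, Tlr4, Ifngr2, Tap1, Gnas, Scd2, Aldoa, Eno1, Pkm, Ldha, Hsph1, Hspa1b, Relb and Hoxa10. Results for some genes are not reported here.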

Additional observations from a re-analysis of the deposited data

Results flagged for a closer look

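Among 182 genes named or described, 5 had 1 MOI library further from the other 3 than Dixon's limit for 4 samples allows, and chance flags about 1 in 20 groups. Serpine2 was lowest at an MOI of 15, at 0.495 CPM. At an MOI of 120 Cnn2 was lowest at 259.8 CPM, Ccnb1 lowest at 35.1 CPM, Twist2 lowest at 108 CPM, and C1s2 highest at 38.8 CPM. The calls of Serpine2, Cnn2 and Ccnb1 were lost without the MOI 30 or 60 library, that of Twist2 without any 1 of the 4, and that of C1s2 with none.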

How the results depend on the processing

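With only the 5 GFP libraries in the fit 5319 genes were called, 2684 higher and 2635 lower in the MOI series. Leaving out 1 replicate of any group gave 2167 to 4670 calls, 1079 to 2284 higher and 1088 to 2391 lower, with the low end from the fits without MOI 30 (2167, 1079 and 1088) and MOI 60 (2183, 1093 and 1090). The cause was not tested. The other alternatives gave totals within 1.5 times of 3369: thinning every library to the smallest total gave 2742 calls, and keeping only genes with whole counts, chosen after seeing the data, gave 2410. With no filter on low counts 1342 of 3042 calls were higher and 1700 lower, and with upper quartile scaling 1808 higher and 1505 lower. No gene was called in the opposite direction in any alternative. Myod1, which was not called, changed sign without MOI 120 (log2 fold changes -0.0436 to 0.0011 with 1 replicate left out). The fit of genes with whole counts tested 15 of the 31 effector genes at 1 CPM or more in 1x GFP and called 14 of them higher. It tested 1 of 9 such GTPases and none of the Ifi200 genes. No paired analysis was possible because the 1x GFP group is a single library and shares no replicate pairing with the MOI series. Depth limits genes near or under 1 CPM in the MOI libraries.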
